A study of Mus musculus with 6 samples.

Results

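The circadian clock genes described here are 10 genes of the core clock and its first output layer: Per1, Per2, Per3, Cry1, Cry2, Nr1d1, Nr1d2, Dbp, Arntl and Bhlhe40. They were taken by gene symbol from the platform annotation, as 20 probe sets, out of 18193 genes with a probe set of 1 gene among 45037 probe sets tested. A probe set is a group of short probes for 1 transcript on an Affymetrix array, and its level is given on a log2 scale, where 1 unit is a 2-fold difference. All 10 genes were measured. Each gene was represented by its brightest probe set, and the 10 representatives all lay at or above 4.84, the median probe set, as did 13 of the 20 probe sets.

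Irradiated cultures were mouse mesenchymal stem cells, from 1 commercial source, given 2 h of broadband terahertz light in pulses (35 fs pulses centred near 10 THz, repeated at 1 kHz, average power density 1 mW/cm2). Control cultures stood beside them without exposure. All 6 cultures were kept at 26 to 27 °C and all carried the same fat-inducing additions, renewed 48 h earlier: rosiglitazone (1 µM), insulin (5 µg/ml), IBMX (100 µM) and dexamethasone (1 µM). There were 3 independent experiments, each with 1 irradiated and 1 control culture, and RNA was taken when exposure ended; the clock time of harvest and the number of donor animals are not given in the sources used here.

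In the mammalian clock, CLOCK pairs with BMAL1, the protein of Arntl, and switches on genes that carry an E-box. Among these are the Per and Cry genes, whose proteins shut CLOCK and BMAL1 down again, Nr1d1 and Nr1d2, which encode the repressors REV-ERB alpha and beta, and Dbp, whose protein activates genes through a D-box. REV-ERB proteins bind ROR elements, among them those of Arntl and Nfil3, so that in a running clock the Arntl transcript is high when those of Dbp and Nr1d1 are low. Glucocorticoids and cAMP set the clocks of cultured cells and induce Per1 directly; dexamethasone is a glucocorticoid, and IBMX blocks the breakdown of cAMP.

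RefSeq promoter windows of mouse build GRCm38.p6, which run from 250 bases before to 50 bases after a gene's start, were at hand for 8 of the 10 genes, in 10 windows. They were searched on both strands for the E-box CACGTG, its variant CACGTT, the D-box as TTATGTAA or TTACGTAA, the ROR element core as TAGGTCA or TGGGTCA, and the cAMP element core TGACGT. No 2 matches overlapped. The motifs were chosen with these sequences in view. Of 32851 promoter windows of this length, 7.15% hold the E-box, 4.68% its variant, 1.06% a D-box, 6.45% a ROR element core and 7.51% the cAMP core. The 5 windows below belong to both sides of the loop, and capitals mark every match in them.
Dbp, chr7:45704997-45705296, plus strand, no match: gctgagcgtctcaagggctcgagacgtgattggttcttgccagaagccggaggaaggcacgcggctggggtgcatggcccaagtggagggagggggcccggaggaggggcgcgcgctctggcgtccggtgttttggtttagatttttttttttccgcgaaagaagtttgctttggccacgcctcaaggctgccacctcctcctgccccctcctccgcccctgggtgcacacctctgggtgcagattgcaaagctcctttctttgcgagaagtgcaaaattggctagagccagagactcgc
Nr1d1, chr11:98775328-98775627, minus strand, 1 match, the E-box variant read on the opposite strand: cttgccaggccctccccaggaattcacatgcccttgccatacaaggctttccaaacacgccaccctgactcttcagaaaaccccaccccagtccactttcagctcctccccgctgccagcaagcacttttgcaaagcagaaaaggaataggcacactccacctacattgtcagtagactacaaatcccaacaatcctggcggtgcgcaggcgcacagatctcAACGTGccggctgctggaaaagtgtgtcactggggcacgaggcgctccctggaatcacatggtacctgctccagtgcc
Per3, chr4:151044616-151044915, minus strand, D-boxes at positions 46 and 93 counted from the 5′ end: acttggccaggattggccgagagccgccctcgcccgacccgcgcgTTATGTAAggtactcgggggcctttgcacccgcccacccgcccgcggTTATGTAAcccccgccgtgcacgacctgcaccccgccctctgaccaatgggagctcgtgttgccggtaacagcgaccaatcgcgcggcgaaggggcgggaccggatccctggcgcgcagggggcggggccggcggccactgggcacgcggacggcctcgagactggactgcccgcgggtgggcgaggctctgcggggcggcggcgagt
Cry1, chr10:85185005-85185304, minus strand, the E-box variant on the opposite strand at position 172 and the E-box at position 191: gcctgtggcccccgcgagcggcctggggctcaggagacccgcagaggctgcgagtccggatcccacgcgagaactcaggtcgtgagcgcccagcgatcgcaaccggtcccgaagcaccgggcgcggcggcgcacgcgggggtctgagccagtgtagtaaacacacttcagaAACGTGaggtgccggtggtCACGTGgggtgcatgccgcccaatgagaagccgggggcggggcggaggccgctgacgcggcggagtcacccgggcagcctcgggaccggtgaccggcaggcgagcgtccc
Arntl, the second of 2 listed windows, chr7:113207261-113207560, plus strand, a ROR element core at position 281: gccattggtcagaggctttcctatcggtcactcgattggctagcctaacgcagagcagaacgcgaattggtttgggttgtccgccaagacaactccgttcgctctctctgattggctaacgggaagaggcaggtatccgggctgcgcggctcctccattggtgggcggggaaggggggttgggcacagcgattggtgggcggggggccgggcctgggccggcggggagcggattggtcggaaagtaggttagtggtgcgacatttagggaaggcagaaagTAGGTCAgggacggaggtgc
In the windows not printed, Per1 held an E-box in its first window and the cAMP core in its second, Cry2 held the E-box variant, and Nr1d2 and the other Arntl window held no match. A match shows letters, not a bound site, and a window without one shows only that these letters are not in it.

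The arrays were first checked for other differences between cultures. Adipocyte markers such as Fabp4 were bright on all arrays, with all 6 of the measured markers at or above the median probe set, as were 6 of 7 mesenchymal stromal markers and all 8 macrophage and leukocyte markers. Of the measured endothelial, neuronal and lymphocyte markers, 1 of 5, 2 of 5 and 1 of 4 reached it. Experiment 1 stood apart in the gap between the 3′ and 5′ probe sets for Gapdh, which tracks RNA integrity, with 0.23 in its irradiated and 0.19 in its control culture, against -0.05 to -0.01 on the other 4 arrays. The same gap for Actb was 0.76 and 0.75 in experiment 1, against 0.61 to 0.72 on the others. The hybridization spike-ins averaged 11.40 in control culture 3, against 10.82 to 10.99 on the other 5 arrays. What part these played in the values below was not tested. In cultures of mixed cells, fewer cells of a type cannot be told apart from less RNA per cell.

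Terahertz exposure moved no clock gene past the test. In limma's fit, blocked by experiment, 0 of the 20 clock probe sets passed an adjusted p of 0.05 between irradiated and control cultures, as did 0% of all 45037 probe sets. At an unadjusted p under 0.05 the counts were also 0 of 20, beside 4.97% of all probe sets. The 10 representatives had a median difference of -0.095, with 2 positive and 8 negative, while all genes had a median of 0.0033. This split depended on experiment 3. Without replicate 3, Per1, Per3, Cry2, Nr1d2, Arntl and Bhlhe40 were positive, at 0.01 to 0.125. Per2, Cry1, Nr1d1 and Dbp were negative, at -0.12 to -0.01. The 95% interval of the difference lay inside 2-fold both ways for all 20 clock probe sets and inside 1.5-fold for 18, beside 99.9% and 97.2% of all probe sets. The 2 probe sets with wider intervals were those of Bhlhe40 and, for Per2, 1417603_at. Marker genes of other cell types moved between the same cultures without passing the test. All 6 adipocyte markers were lower in irradiated cultures, with a mean level of 12.28 to 12.32 there and 12.36 to 12.52 in controls, and all 8 macrophage and leukocyte markers were higher, with 10.91 to 10.99 and 10.71 to 10.90. Their part in the clock gene values was not tested.

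Dbp, the D-box activator, had a small difference, with the same sign in every pair by its representative but not by its second probe set. Its representative had 8.60, 7.72 and 7.46 in irradiated cultures 1, 2 and 3, against 8.62, 7.81 and 7.62 in their controls. The irradiated culture was the lower of the pair each time, by 0.02, 0.09 and 0.16, and the arms overlapped because the experiments lay far apart. The mean level was 7.93 ± 0.60 in irradiated and 8.02 ± 0.53 in control cultures (SD, n = 3 each), and the paired difference was -0.09 ± 0.08 (SE of limma's fit, n = 3 pairs; adjusted p = 0.943). The second Dbp probe set, 1418174_at, was at -0.07 ± 0.09, with 6.38, 5.43 and 5.51 in irradiated and 6.35, 5.65 and 5.54 in control cultures. Its pair differences were 0.03, -0.22 and -0.03. All pairs shared a direction in 3 of the 20 clock probe sets, beside 23.8% of all probe sets. The irradiated culture was lower in all 3, beside 11.2%, and 0 of 20 were higher in every pair, beside 12.6%. The other two were Per2 1457350_at and Arntl 1457740_at.

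The REV-ERB genes did not share a direction between pairs. Nr1d1 had 8.09, 7.28 and 7.05 in irradiated cultures 1, 2 and 3, against 7.66, 7.73 and 7.15 in their controls. Its pair differences of 0.43, -0.45 and -0.10 cancelled to a mean of -0.04 ± 0.16, and without replicate 2 the mean was 0.165. With 1 pair in each experiment, whether the pairs differ cannot be tested. Nr1d2 stood at 9.98 and 9.80, 9.87 and 9.80, and 9.41 and 9.48 in irradiated and control cultures of the 3 experiments, a difference of 0.06 ± 0.08. A dim second probe set of Nr1d2, 1416959_at, was at 0.09 ± 0.09.

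Among the Per genes, which encode the negative limb of the loop, Per1 had 8.93, 9.08 and 9.08 in irradiated cultures 1, 2 and 3 and 8.72, 9.23 and 9.08 in their controls. Its 3 pair differences were 0.21, -0.15 and 0, and the fitted difference of 0.02 ± 0.10 had an interval from -0.21 to 0.25. Per2 had 6.47, 6.89 and 6.40 in irradiated and 6.38, 7.13 and 6.76 in control cultures, lower in 2 of 3 pairs, with a difference of -0.17 ± 0.11. Its other probe sets had opposite signs, at -0.14 ± 0.08 for 1457350_at and 0.26 ± 0.19 for 1417603_at. Per3 stood at 5.77, 5.80 and 5.41 in irradiated and 5.78, 5.70 and 5.51 in control cultures, a difference of -0.0033 ± 0.081. The 5 other Per3 probe sets ranged from -0.07 to 0.19, and all 5 but 1460662_at lay below the median probe set.

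For the cryptochromes, partners of the PER proteins, and for Bhlhe40 the irradiated culture was the lower of the pair in experiment 3. This was not particular to them. Every other representative was also lower in that pair, except Per1, whose difference was 0. Cry1 stood at 6.93, 7.39 and 7.57 in irradiated and 7.34, 7.22 and 7.86 in control cultures, a difference of -0.18 ± 0.13. Cry2 stood at 7.41, 8.02 and 7.74 in irradiated and 7.29, 8.10 and 8.14 in control cultures, a difference of -0.12 ± 0.11. For Cry2 the irradiated culture was higher in experiment 1 and lower in the others, and for Cry1 it was higher only in experiment 2. Bhlhe40, which encodes the E-box repressor DEC1, had 9.91, 10.06 and 9.80 in irradiated and 9.72, 10.07 and 10.51 in control cultures. Control culture 3, whose spike-ins were brightest, had the highest Bhlhe40 level, and the difference was -0.18 ± 0.17. Without replicate 3 the differences were 0.09 for Bhlhe40 and 0.02 for Cry2.

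Arntl, the positive limb, stood at 7.23, 8.02 and 7.63 in irradiated cultures and at 7.33, 7.90 and 7.95 in controls. The arms overlapped, and irradiated cultures were lower in experiments 1 and 3 and higher in experiment 2. The paired difference was -0.10 ± 0.10, and it was 0.01 without replicate 3. The dim probe set 1457740_at, which was lower in all 3 pairs, had 4.17, 4.63 and 4.47 in irradiated and 4.44, 4.99 and 4.50 in control cultures. Its difference of -0.22 ± 0.09 had the smallest unadjusted p of the 20 probe sets (0.0547; adjusted p = 0.929 by limma).

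**Figure D1:**
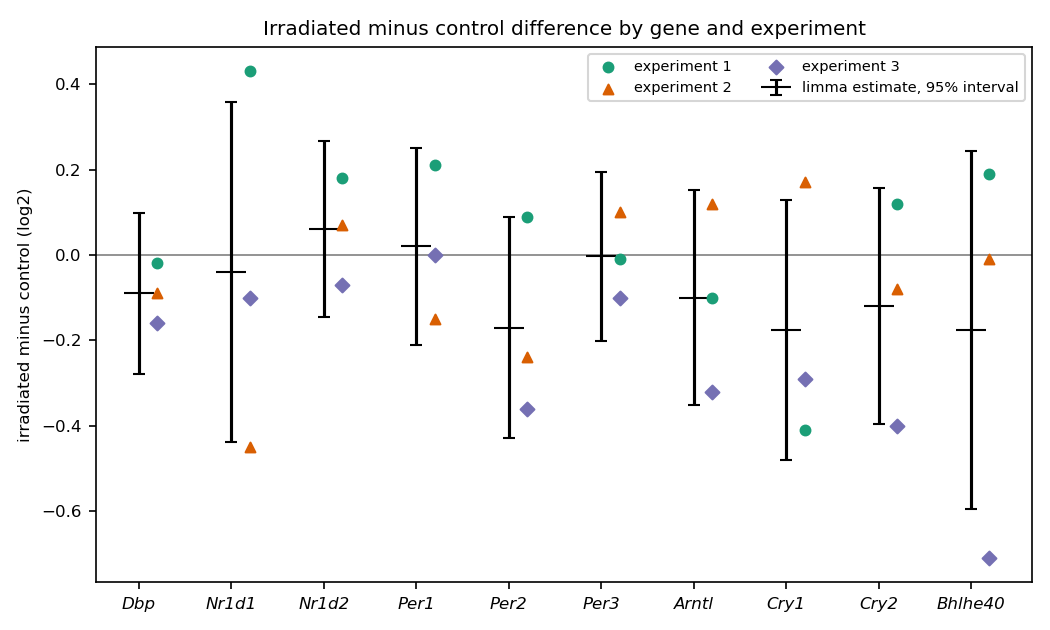
Irradiated minus control difference (log2, vertical axis) for the 10 clock genes, with limma's estimate and 95% interval as black bars and each experiment's pair difference as a coloured symbol (n = 3 pairs). Every interval crosses 0, and the widest pair differences are -0.71 for Bhlhe40 in experiment 3 and -0.45 and 0.43 for Nr1d1 in experiments 2 and 1.

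Clock levels differed more between experiments than between the cultures of a pair. In 14 of 20 clock probe sets the range of the 3 experiment means exceeded the largest difference within a pair, beside 39.4% of all probe sets. Similarly, 14 of 20 spanned at least 0.5 log2 units over the 6 arrays, beside 25.4%. Among the representatives 9 of 10 did so, and Per3, with a range of 0.39, did not. The experiments were compared in the same limma fit with irradiation as a term, each as 2 arrays, so these p-values measure the spread between neighbouring cultures and treat the effect of exposure as equal in all experiments. Experiment 1 was also the one whose Gapdh gap, 0.23 and 0.19, lay above that of the others, and the part of this in the differences was not tested.

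**Figure D2:**
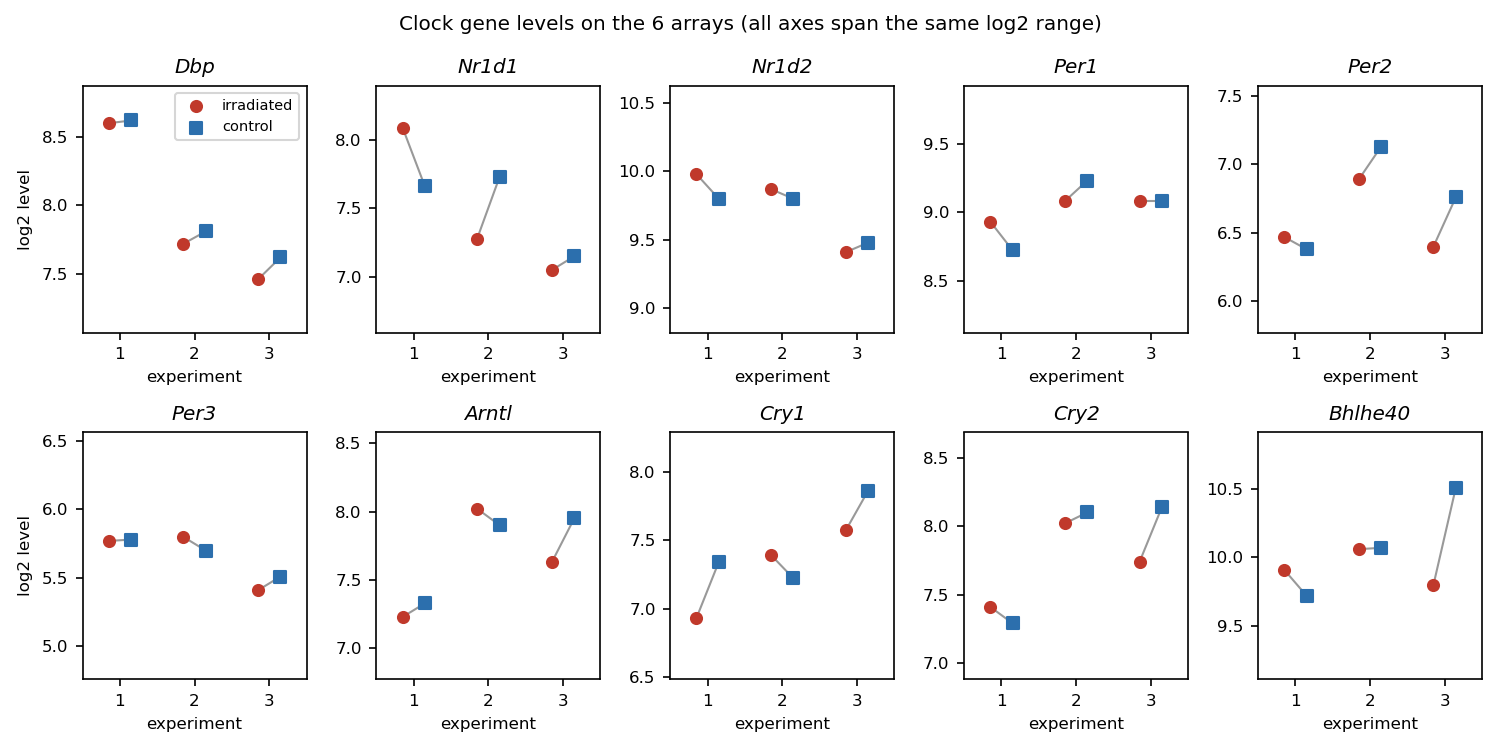
Level (log2, vertical axes of equal span) of the representative probe set of each clock gene by experiment, with the irradiated culture as a red circle left of its control as a blue square, joined by a line. Both Dbp values of experiment 1, 8.60 and 8.62, lie above the other 4, and both Arntl values of experiment 1, 7.23 and 7.33, lie below the other 4.

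Dbp was higher in experiment 1 than in either of the others, and was the clock gene that passed the test. Experiment 1 averaged 8.61 on its 2 arrays, experiment 2 averaged 7.765 and experiment 3 averaged 7.54. The difference was 0.845 ± 0.095 between experiments 1 and 2, which is 1.80-fold (SE, n = 2 arrays each; limma adjusted p = 0.0294), and 1.07 ± 0.10 between experiments 1 and 3, which is 2.10-fold (adjusted p = 0.00567). The second probe set of Dbp also passed, with 0.825 ± 0.105 (adjusted p = 0.0430) and 0.84 ± 0.10 (adjusted p = 0.0152). Experiments 2 and 3 were not told apart, at 0.225 ± 0.095 (adjusted p = 0.513) and 0.015 ± 0.105 (adjusted p = 0.974). Over the 3 experiments together, by limma's F test, both Dbp probe sets passed (adjusted p = 0.0138 and 0.0282).

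These 2 were the clock probe sets called, 2 of 20 in experiment 1 against experiment 2, beside 0.52% of all probe sets, 2 of 20 in experiment 1 against experiment 3, beside 3.05%, and 2 of 20 by the F test, beside 1.53%. Both were higher in experiment 1, as were 0.0466% of all probe sets against experiment 2 and 1.18% against experiment 3, and 0 of 20 were lower, beside 0.473% and 1.87%. Between experiments 2 and 3, 0 of 20 passed, beside 0.0355% of all probe sets. At an unadjusted p under 0.05 the counts were 7, 9 and 6 of 20 for experiments 1 against 2, 1 against 3 and 2 against 3, beside 9.89%, 19.1% and 9.89%. At an unadjusted p under 0.05 by the F test, 11 of 20 passed, beside 15.2%. With any 1 of the 6 arrays left out, 1 experiment holds 1 array and 1 residual degree of freedom remains, so these calls cannot be checked that way. The Dbp difference then stayed between 0.79 and 0.90 against experiment 2 and between 1.02 and 1.12 against experiment 3.

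By their representatives, the REV-ERB genes and Per3 lay on the same side as Dbp in experiment 1 against experiment 3 and did not pass. Nr1d1 was at 0.775 ± 0.20 (1.71-fold; adjusted p = 0.112), Nr1d2 at 0.445 ± 0.104 (1.36-fold; adjusted p = 0.0887) and Per3 at 0.315 ± 0.099 (1.24-fold; adjusted p = 0.165). Against experiment 2 the same genes were at 0.37 ± 0.20, 0.055 ± 0.104 and 0.025 ± 0.099. The dim Nr1d2 probe set 1416959_at had the opposite sign, at -0.10 ± 0.11 against experiment 3 and -0.105 ± 0.109 against experiment 2. The other Per3 probe sets ranged from -0.01 to 0.245 and from -0.165 to 0.22 in the same order. In order of level by representative, experiment 1 was highest and experiment 3 lowest for Dbp, Nr1d1, Nr1d2 and Per3. The neighbours in that order that lay closest were experiments 1 and 2 for Nr1d2 and Per3, and Dbp had its closest pair in experiments 2 and 3. The single arrays of Nr1d1 overlapped, since control culture 2 (7.73) lay above control culture 1 (7.66).

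Per1 and Per2 lay on the opposite side of Dbp, with their lowest means in experiment 1. Per1 averaged 8.825 in experiment 1, 9.155 in experiment 2 and 9.08 in experiment 3, and both arrays of experiment 1 lay below the other 4. The differences were -0.33 ± 0.12 from experiment 2 (adjusted p = 0.428) and -0.255 ± 0.116 from experiment 3 (adjusted p = 0.304). Per2 averaged 6.425, 7.01 and 6.58 in experiments 1, 2 and 3, with differences of -0.585 ± 0.131 and -0.155 ± 0.131 (adjusted p = 0.206 and 0.574). The dim Per2 probe set 1417603_at had the opposite sign, at 0.315 ± 0.232 and 0.61 ± 0.23. The third, 1457350_at, was at -0.12 ± 0.09 and 0.04 ± 0.09, so the direction of Per2 rests on the probe set used.

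Arntl and Cry2 were lower in experiment 1 by values close to each other, and neither passed. Arntl averaged 7.28 in experiment 1, 7.96 in experiment 2 and 7.79 in experiment 3. Its differences were -0.68 ± 0.13 (1.60-fold; adjusted p = 0.140) from experiment 2 and -0.51 ± 0.13 (1.42-fold; adjusted p = 0.103) from experiment 3. The second Arntl probe set was at -0.505 ± 0.114 and -0.18 ± 0.11. Cry2 averaged 7.35, 8.06 and 7.94, with differences of -0.71 ± 0.14 (1.64-fold; adjusted p = 0.156) and -0.59 ± 0.14 (1.51-fold; adjusted p = 0.0913). Both arrays of experiment 1 lay below the other 4 for both genes.

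Cry1 followed another order, with means of 7.135, 7.305 and 7.715 in experiments 1, 2 and 3. It differed by -0.58 ± 0.15 between experiments 1 and 3 (adjusted p = 0.116) and by -0.17 ± 0.15 between experiments 1 and 2 (adjusted p = 0.768). Bhlhe40 differed by -0.25 ± 0.21 and -0.34 ± 0.21 (adjusted p = 0.748 and 0.442), and without control culture 3 the second was 0.06. In all, the arrays of experiment 1 lay outside the other 4 in 8 of 20 clock probe sets, 4 above and 4 below, beside 25.7% of all probe sets, 14.7% above and 11% below. Those above were both probe sets of Dbp, Per2 1417603_at and Per3 1458176_at, and those below were both of Arntl, Cry2 and Per1.

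Several of these calls depended on how limma shares variance between probe sets. With an intensity trend and a robust prior, experiment 1 minus experiment 3 passed for 7 of 20 clock probe sets: both of Dbp, and the representatives of Nr1d1 (adjusted p = 0.0240), Nr1d2 (0.00910), Cry1 (0.0308), Cry2 (0.0177) and Arntl (0.0244). In the main limma fit the adjusted p was 0.112 for Nr1d1, 0.0887 for Nr1d2, 0.116 for Cry1, 0.0913 for Cry2 and 0.103 for Arntl. All probe sets called with the trend and robust prior numbered 3698 of 45037, against 1374 in the main fit.

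**Figure D3:**
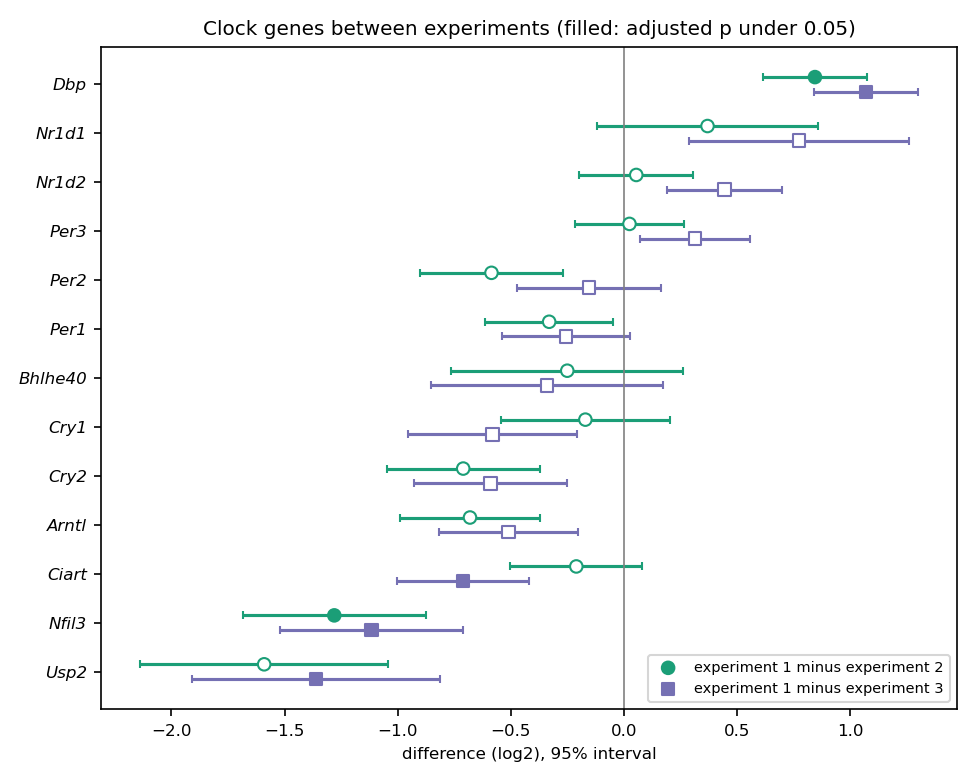
Difference between experiments (log2, horizontal axis) with its 95% interval for the 10 clock genes and 3 further clock-related genes, experiment 1 minus experiment 2 as green circles and experiment 1 minus experiment 3 as purple squares, filled where the adjusted p was under 0.05 (n = 2 arrays for each experiment). Dbp lies at 0.845 and 1.07, right of 0. Nfil3 lies at -1.28 and -1.115, left of 0, as do Usp2 at -1.59 and -1.36 and Ciart at -0.21 and -0.71.

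The arms of the clock that are opposed in phase were set against each other by experiment. Each gene was expressed as its deviation from its own mean over the 6 arrays, and Per1, Per2, Per3, Nr1d1, Nr1d2 and Dbp, driven by E-boxes and D-boxes, were averaged as 1 arm. Cry1, Cry2 and Bhlhe40, which E-boxes also drive, were kept singly. The arm had 0.216, 0.016 and -0.289 in irradiated cultures 1, 2 and 3, against 0.070, 0.143 and -0.157 in their controls. It set experiment 3 below the others but did not separate experiments 1 and 2, whose arrays overlapped and whose means were 0.143 and 0.080. Arntl had -0.447, 0.343 and -0.047 in irradiated cultures, against -0.347, 0.223 and 0.273 in controls, with experiment 1 below the other 4 arrays.

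The arm minus Arntl was 0.66 in irradiated culture 1 and 0.42 in control culture 1, and between -0.43 and -0.08 on the other 4 arrays. Experiment 1 minus experiment 2 came to 0.74, of which the arm gave 0.063 and Arntl the rest, with -0.68. Experiment 1 minus experiment 3 came to 0.88, with 0.37 from the arm and -0.51 in Arntl. Experiment 2 minus experiment 3 came to 0.13 and had no stable direction, at -0.035 with the mean of probe sets and -0.085 in irradiated arrays alone.

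Within the arm the genes were not uniform. Dbp was at 0.63 and 0.65 in irradiated and control culture 1, while Per1 was at -0.09 and -0.30 and Per2 at -0.20 and -0.29. Without Dbp, a setting added after the data were seen, the arm was at 0.044 in experiment 1, 0.137 in experiment 2 and -0.181 in experiment 3, so experiment 1 lay below experiment 2. With Cry1, Cry2 and Bhlhe40 included, also added after the data were seen, the arm was at -0.0024, 0.081 and -0.079 in experiments 1, 2 and 3. The sign of the arm in experiment 1, and its order against experiment 2, thus rest on which genes are averaged. No test is given for these averages.

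**Figure D4:**
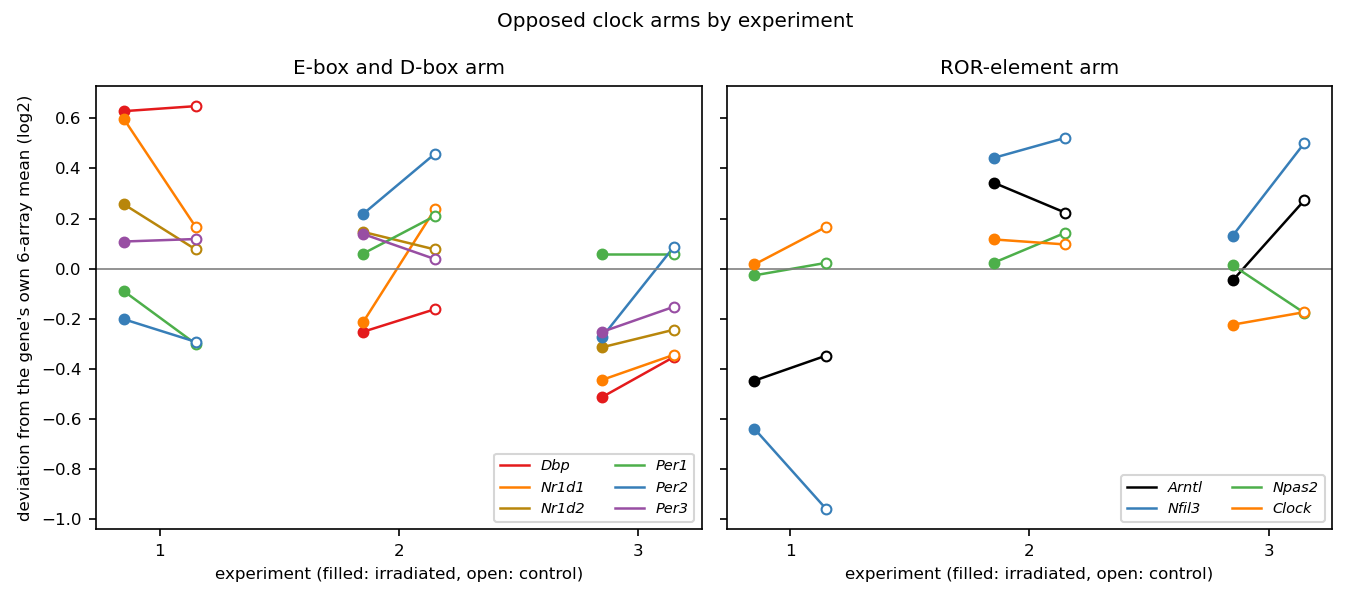
Deviation of each gene from its own mean over the 6 arrays (log2, vertical axis) by experiment, with the irradiated culture as a filled and its control as an open circle, for the E-box and D-box arm at left and for Arntl, Nfil3, Npas2 and Clock at right. Dbp lies at 0.63 and 0.65 in experiment 1 and below 0 in the others, and Arntl lies at -0.45 and -0.35 in experiment 1.

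Other genes of the clock were taken from a list of 22, of which 20 were measured. Between irradiated and control cultures 0 of 20 passed, with 9 positive and 11 negative differences and a median of -0.035. Against experiment 2, 1 of 20 differed in experiment 1, beside 0.52% of all probe sets, and this was Nfil3, the D-box repressor that works against DBP. Nfil3 stood at 9.37 in the irradiated and 9.05 in the control culture of experiment 1, against 10.45 and 10.53 in experiment 2 and 10.14 and 10.51 in experiment 3. Both arrays of experiment 1 lay below the other 4, by -1.28 ± 0.17 from experiment 2 (2.43-fold; adjusted p = 0.0462) and -1.115 ± 0.167 from experiment 3 (2.17-fold; adjusted p = 0.0270).

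Against experiment 3, Usp2 and Ciart were also lower in experiment 1, which makes 3 of 20 with Nfil3, beside 3.05% of all probe sets called and 1.87% lower. Unlike Nfil3, Usp2 and Ciart were assigned to neither arm, so their direction says nothing here on whether the arms are opposed. Usp2, a deubiquitinating enzyme gene whose transcript cycles in mouse liver, stood at 6.55 and 6.34 in irradiated and control culture 1, 8.02 and 8.05 in experiment 2, and 7.42 and 8.19 in experiment 3. It differed by -1.36 ± 0.23 from experiment 3 (2.57-fold; adjusted p = 0.0367) and by -1.59 ± 0.23 from experiment 2 (3.01-fold; adjusted p = 0.0621). Its other probe set, 1417168_a_at, differed by -2.365 ± 0.376 and -2.59 ± 0.38. Ciart, whose protein represses CLOCK and BMAL1, stood at 6.16 and 5.97 in experiment 1, 6.31 and 6.24 in experiment 2, and 6.68 and 6.87 in experiment 3, with a difference of -0.71 ± 0.12 from experiment 3 (1.64-fold; adjusted p = 0.0385).

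The partners and kin of the clock genes did not pass in experiment 1 against experiment 3. Clock was at 0.29 ± 0.10 (adjusted p = 0.186), Npas2, a stand-in for CLOCK, at 0.08 ± 0.11, and Tef, a D-box activator like Dbp, at 0.365 ± 0.093 (adjusted p = 0.109). Rora, an activator at ROR elements, was at -0.215 ± 0.121 by its representative, while its probe set 1458145_at was at -0.94 ± 0.11 (adjusted p = 0.0131), so its probe sets gave different calls. The median over the 20 genes was -0.05 for experiment 1 minus experiment 2 and -0.0425 for experiment 1 minus experiment 3, with 8 positive and 12 negative in each, while all genes had a median of 0.02 in both. Macrophage and leukocyte markers had medians of 0.09 and 0.18 in these comparisons and adipocyte markers 0.03 and 0.17, with 0 of 8 and 0 of 6 past the test. All 5 neuronal markers were lower in experiment 1 in both comparisons, and 1 of them, Tubb3, passed against experiment 3. Of the 5 endothelial markers 1, Pecam1, also passed and was lower, beside 1.87% of all probe sets. It had 2.70 and 2.58 in irradiated and control culture 1 against 3.18 and 3.21 in experiment 3, all below the median probe set (4.84). Kdr, Tek and Emcn were at -0.08, -0.08 and -0.11 in that comparison and Cdh5 at 0.165, and none of these passed. Against experiment 2, 4 of the 5 endothelial markers were higher in experiment 1. In 5 of the 8 macrophage and leukocyte markers both arrays of experiment 1 lay above the other 4, beside 14.7% of all probe sets. Others of the list went the other way, with 3 of 8 lower in experiment 1 than in experiment 2 and 2 of 8 lower than in experiment 3. Cd14 was lower in both comparisons, at -0.13 and -0.38, and so was Cd68, at -0.035 and -0.025. The part of these markers in the clock gene values was not tested.

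The genes most like Dbp and Arntl over the 6 arrays were sought among 2505 genes that lay at or above the median probe set and spanned at least 0.5. For Dbp they were Evi5, Trps1, Pik3ip1, Zfp362 and Trabd2b, with Pearson's r of 0.983 to 0.987. Pik3ip1, for example, stood at 7.25 and 7.27 in irradiated and control culture 1, 6.67 and 6.83 in experiment 2, and 6.63 and 6.77 in experiment 3. For Arntl they were D16Ertd472e, Uap1, Osgin2, Fam13c and Zfp948, with r of 0.992 to 0.998. Uap1 stood at 9.06 and 9.16, 10.44 and 10.32, and 9.79 and 10.35 in the same order. The 6 arrays share 3 experiments, so r here mostly restates the order of the experiments.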

How the data were processed

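Total RNA (200 ng a sample) from 3 irradiated and 3 control cultures was hybridized to Affymetrix arrays, 1 array each. The authors deposited log2 levels; RMA, affy and limma are named, without versions, in the submitters' processing notes. RMA combines background correction, quantile normalization and summary of probes. The base of the log is not stated and is assumed to be 2, the scale of RMA output. Levels carry 2 decimals and span 1.91 to 14.57. After quantile normalization, a shift common to every transcript is invisible. The scanner files were not used here. Of 45101 probe sets, 64 Affymetrix controls were left out.

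Tests used limma 3.58.1 in R 4.3.3 (lmFit, eBayes) with experiment and irradiation as fixed terms, two-sided, Benjamini-Hochberg adjusted over 45037 probe sets, with no filter on level and a threshold of 0.05. On data simulated with independent noise, the fit was required only to return the mean size of planted changes, which does not check its calls. The number of arrays, 3 a group and 2 an experiment, limits the precision. The pairs come from the series design, and deviations of paired arrays correlated with r = 0.63, 0.14 and 0.50 across probe sets in experiments 1, 2 and 3. The rule for named genes takes all members, a list of other clock genes, and the 5 genes most like Dbp and Arntl. Members, lists and motifs were chosen with earlier results of these data known. Alternatives were the block, the irradiation term, normalization, a level filter, the prior, array weights, the mean of probe sets and leaving out arrays.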

Additional observations from a re-analysis of the deposited data

How the results depend on the processing

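Irradiated minus control gave 0 calls among all probe sets in every setting but one: with no replicate block, a random block, quantile normalization, median centring, the level filter, array weights, the mean of probe sets and without any replicate the count was 0, and with an intensity trend and robust prior it was 1, in Tmem182. Clock calls were 0 in all of them, and the block changed no call. Between experiments the counts of all probe sets were, for experiment 1 minus 2, 1 minus 3, 2 minus 3 and the F test in turn, 374, 2513, 64 and 1124 with the level filter, which tests fewer probe sets, 742, 3698, 315 and 2381 with the trend and robust prior, and 151, 750, 33 and 401 of 18193 genes with the mean of probe sets. With no irradiation term experiment 2 minus 3 gave 52. Clock probe sets called with the trend and robust prior numbered 4, 7 and 5 of 20 for experiment 1 minus 2, 1 minus 3 and the F test. Beside them stood 742, 3698 and 2381 of all 45037 probe sets. For experiment 1 minus 3, 4 of 13 clock probe sets passed with the level filter, beside 2513 of 22519 in all. With the mean of probe sets 1 clock gene of 10 passed, beside 750 of 18193 genes. Without any 1 array, which leaves 1 residual degree of freedom, all these counts were 0 (lowest 0, highest 0). The arm minus Arntl was 0.99 in irradiated arrays alone, 0.50 in control arrays alone and 0.58 with Npas2, Clock and Nfil3 added to Arntl for experiment 1 minus 2, and 0.67 with the mean of probe sets and 0.68 with the added genes for experiment 1 minus 3. The added genes were not uniform. Nfil3 was at -1.28 and -1.115 for experiment 1 minus 2 and 1 minus 3. Clock was at -0.015 and 0.29, and Npas2 at -0.085 and 0.08. The arm minus Arntl was also taken for the remaining comparison. For experiment 2 minus 3 it was -0.035 with the mean of probe sets, -0.085 in irradiated and 0.35 in control arrays alone. With Cry1, Cry2 and Bhlhe40 added to the arm, chosen after the data were seen, it was 0.60, 0.59 and -0.011 for experiment 1 minus 2, 1 minus 3 and 2 minus 3; without Dbp, likewise chosen, it was 0.59, 0.735 and 0.15. The cause was not tested.

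Signs turned only for differences that had not passed. Per3 was at 0.0125 with array weights and 0.028 with the mean of probe sets between irradiated and control cultures. With the mean of probe sets Per3 was at -0.02 and Nr1d2 at -0.025 for experiment 1 minus 2, and Per2 at 0.165 for experiment 1 minus 3. Leaving out 1 experiment, irradiated minus control ranged from -0.075 to 0.105 for Per1, -0.055 to 0.045 for Per3, -0.24 to 0.02 for Cry2, -0.275 to 0.165 for Nr1d1, -0.21 to 0.01 for Arntl, -0.36 to 0.09 for Bhlhe40, -0.225 to 0.12 for Nfil3, -0.40 to 0.09 for Usp2 and -0.06 to 0.13 for Ciart. Leaving out 1 array, experiment 1 minus 2 ranged from -0.43 to 0.09 for Cry1, -0.035 to 0.145 for Nr1d2, -0.525 to 0.025 for Bhlhe40 and -0.0525 to 0.1025 for Per3. Experiment 1 minus 3 ranged from -0.35 to 0.04 for Per2 and -0.74 to 0.06 for Bhlhe40. Experiment 2 minus 3 ranged from -0.0525 to 0.2025 for Per1, -0.49 to 0.31 for Bhlhe40, -0.09 to 0.33 for Cry2, -0.08 to 0.41 for Nfil3 and -0.20 to 0.66 for Usp2.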
